A study of Mus musculus with 14 samples.

Results

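Lungs of mice that had received heat-recovered carbon fibre were compared with lungs of mice that had received virgin fibre. The heat-recovered side holds the 7 arrays labelled CCF (3) or RCF (4), and the other side the 4 arrays labelled VCF, so 11 of the 14 arrays of the series entered the comparison and the 3 vehicle arrays (Ctrl) served as a background. Arrays were placed in groups by their titles alone, and the heat-recovered level is the mean of the CCF and RCF group means, so that both groups weigh equally.

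All animals were C57BL/6N males whose lungs were taken 6 months after intratracheal dosing. VCF is the fibre before recycling, CCF the fibre after a carbonization step and RCF the fibre after a firing step, each given at 200 µg per mouse, and Ctrl mice received the PBS vehicle. Each array carries RNA of 1 lung, described in the design text as independent biological samples. Fibre length, diameter and residual resin are not given in the sources used here.

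Carbon fibre is recovered from composite plastic by heating, which drives off the resin that binds it. Long-lived fibres in the lung are handled by alveolar macrophages, and persistent particles can recruit monocytes, neutrophils and lymphocytes and can lead to deposition of collagen by fibroblasts. The comparison therefore reads leukocyte, interferon, matrix and epithelial genes beside all other genes, and markers of tissues next to the lung.

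Levels are log2 of the processed signal minus the array's own 75th percentile, so 0 is a bright probe and negative values are dimmer ones. Levels of different probes are not compared. Differences are heat-recovered minus VCF on the log2 scale with the standard error (SE) of limma's fit, adjusted p-values are Benjamini-Hochberg values over 29269 probes, and a p without the word adjusted is limma's unadjusted p.

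The short sequences shown first belong to interferon response genes, because 17 of the 18 measured genes of that list were higher in heat-recovered lungs and some carry the interferon-stimulated response element just before the start. That element was searched as GAAANNGAAA on both strands of 300-base windows, from 250 bases before to 50 bases after each start. It occurs in 3.44% of 32851 windows. Of the 18 genes, 13 matched a window and 9 of these hold the letters at least once, of which 4 are shown; which genes hold them did not depend on the arrays. Each line is 80 bases upstream of the start, 5′ to 3′ on the gene's strand, from RefSeq on GRCm38.p6, with the matched letters in capitals; overlapping matches in Isg15 run together, and the matches in Ifit1 read GAAANNGAAA on the opposite strand. The windows are chr5:92349058-92349137, minus strand, for Cxcl10, a chemokine for T cells; chr4:156200846-156200925, minus strand, for Isg15, a ubiquitin-like modifier; chr5:120777690-120777769, minus strand, for Oas3, an RNA-sensing oligoadenylate synthetase; and chr19:34640759-34640838, plus strand, for Ifit1, which binds foreign RNA.
Cxcl10: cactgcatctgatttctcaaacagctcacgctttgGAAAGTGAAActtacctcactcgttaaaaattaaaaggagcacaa
Isg15: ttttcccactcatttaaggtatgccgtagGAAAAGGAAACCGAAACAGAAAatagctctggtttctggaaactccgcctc
Oas3: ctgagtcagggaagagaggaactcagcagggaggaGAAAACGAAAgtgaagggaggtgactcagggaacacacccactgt
Ifit1: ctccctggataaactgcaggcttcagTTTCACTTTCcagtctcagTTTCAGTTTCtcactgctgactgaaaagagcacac
A match in these letters is a description of the sequence, not a site shown to be used.

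No probe passed an adjusted p of 0.05 between heat-recovered and VCF lungs; the percentage called was 0 and the smallest adjusted p was 0.168. At an unadjusted p under 0.05, 1262 probes were lower in heat-recovered lungs (4.31%) and 220 were higher (0.752%), 1482 in all, where 1463 are the 5% of tested probes that chance would give. The arrays of both sides did not overlap at 221 probes that were lower (0.755%) and at 22 that were higher (0.0752%). Both component comparisons also gave a percentage of 0 at an adjusted p of 0.05, both for CCF against VCF (1350 probes lower, 4.61%, and 349 higher, 1.19%, at an unadjusted p under 0.05) and for RCF against VCF (1098 lower, 3.75%, and 450 higher, 1.54%). These comparisons share the 4 VCF arrays, so nothing is read from their likeness. RCF against CCF, which leaves VCF out, gave 0 probes at an adjusted p of 0.05, and 972 lower in RCF (3.32%) and 1340 higher (4.58%) at an unadjusted p under 0.05.

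The direction of the small p-values was uneven and depended on the kind of probe. Of the 29269 probes, 20814 match 1 gene symbol and 4089 carry an accession that begins with AK, the prefix of a collection of full-length mouse cDNA clones, and match none. Symbols were matched through RefSeq accessions alone, so AK accessions could not match, and whether these clones lie in named genes was not determined. Among gene-named probes 302 (1.45%) were lower and 169 (0.812%) higher at an unadjusted p under 0.05. Among AK probes 733 (17.9%) were lower and 15 (0.367%) higher. Probes with the prefix TC, a separate series of assembled transcripts, behaved likewise, with 53 of 328 lower (16.2%) and 0 higher. The classes were formed after the values had been seen, so these shares are descriptions with no test.

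**Figure D1:**
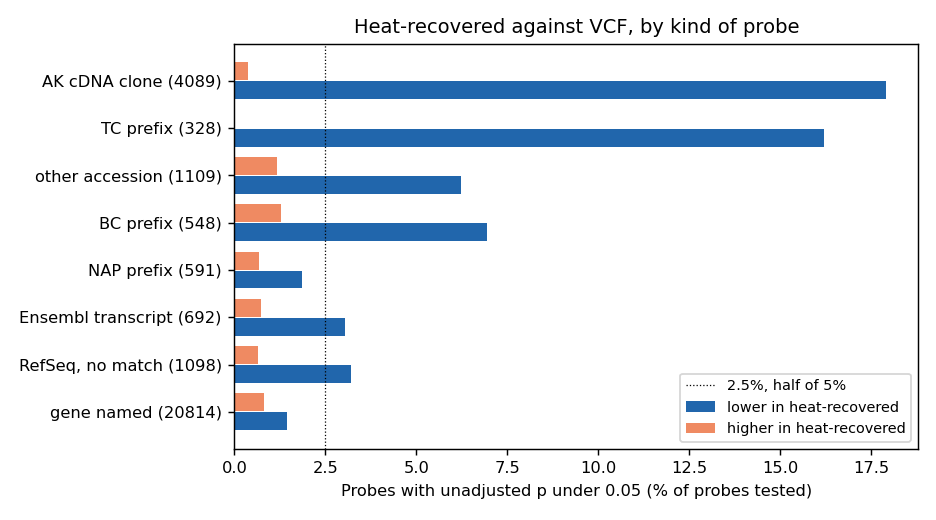
Share of tested probes (%, horizontal axis) with an unadjusted limma p under 0.05 in heat-recovered against VCF lungs, by kind of probe, with the number tested in brackets; dark bars are lower in heat-recovered lungs and light bars higher, and the dotted line is the share chance gives in 1 direction. Lower probes reach 17.9% of AK clones and 16.2% of TC probes against 1.45% of gene-named probes.

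AK probes are dimmer than gene-named ones, so both kinds were set against each other within 5 equal classes of signal. From the dimmest to the brightest class, 19.6%, 25.4%, 12.9%, 5.73% and 3.32% of AK probes were lower in heat-recovered lungs. Gene-named probes stayed between 1.04% and 1.82% in the same classes. In the dimmest class 17.2% of AK probes and 26.0% of gene-named probes were well above background on every VCF and heat-recovered array. In the other classes it was 97.4% to 99.7% of AK probes. Dim probes can pass the filter through the VCF arrays alone, where they are high, so the share in the dimmest class is a description. The median difference of all AK probes was -0.13, with -0.18 in CCF and -0.12 in RCF, and Ctrl minus VCF, which uses the same VCF arrays, was -0.18. That of gene-named probes was 0.00.

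By array, the median deviation of the AK probes from their means was 0.13 in VCF replicate 1, 0.19 in VCF replicate 2, 0.17 in VCF replicate 3 and 0.09 in VCF replicate 4. In the heat-recovered arrays it ran from -0.16 over a median of -0.05 to 0.08, so all 7 lay below the lowest VCF array. In Ctrl arrays it ran from -0.23 to 0.03. The medians of gene-named probes lay between -0.03 and 0.04 on these 14 arrays and the sides overlapped.

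**Figure D2:**
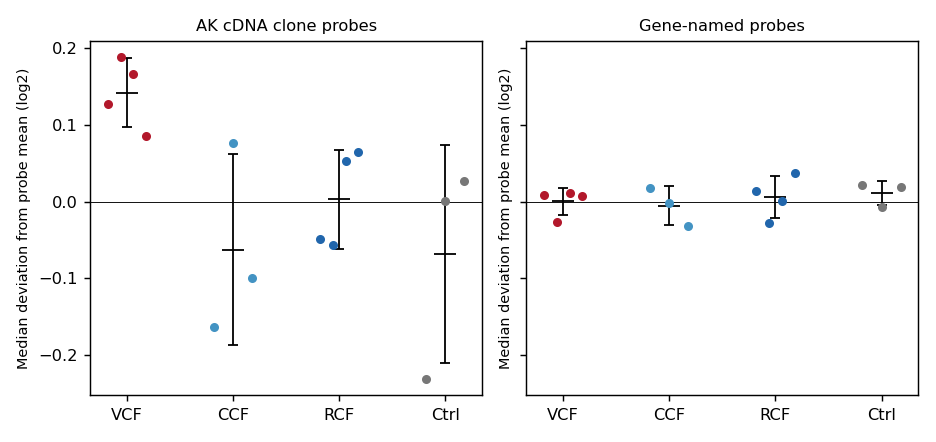
Median deviation of AK clone probes (left) and gene-named probes (right) from each probe's mean over all arrays (log2, vertical axis), 1 point per array, with the group mean and SD. All 4 VCF arrays lie above all 7 heat-recovered arrays for AK probes, and no separation shows for gene-named probes.

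The offset of AK probes was negative within each of the 4 slides: -0.24, -0.05, -0.22 and -0.12 from the first to the fourth slide. Values within slides, here and below, compare single arrays of each group. Slide 2 held no CCF array, so its values set RCF replicate 4 against VCF replicate 4. On 3 slides the VCF array had the highest percentage of probes well above background among the fibre arrays. On slide 1 VCF replicate 2 had 67.3% against 63.1% in CCF replicate 1 and 64.7% in RCF replicate 3, and on slide 4 VCF replicate 1 had 66.6% against 64.4% in CCF replicate 2 and 65.1% in RCF replicate 2. On slide 3 VCF replicate 3 had 68.6% against 66.3% in CCF replicate 3 and 68.3% in RCF replicate 1, while on slide 2 VCF replicate 4 had 68.8% against 70.6% in RCF replicate 4. The AK deviation did not follow this percentage on every array. Ctrl replicate 3 on slide 3 had 69.5% and an AK deviation of 0.03, beside 0.17 in VCF replicate 3. On slide 4 RCF replicate 2 had a lower AK deviation (-0.06) than CCF replicate 2 (0.08). The part of the percentage in the result was not tested. Over the AK probes well above background on all 14 arrays, 16.7% were lower and the median was -0.07. With normexp background correction the AK median was -0.39 while the median of all probes was -0.18, and 1.17% of AK probes were lower at an unadjusted p under 0.05. Without a filter on dim probes the AK median was 0.06 and 8.61% were lower.

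Of the 221 probes that did not overlap and were lower, 148 were AK probes and 34 named a gene. AK probes thus made up 67.0% of these 221, beside 4089 of the 29269 tested. At 202 of the 221 (91.4%) the Ctrl mean lay nearer to heat-recovered lungs than to VCF. The same held at 17 of the 22 higher probes (77.3%). All these probes were chosen because VCF lay apart from the heat-recovered arrays, so the position of Ctrl is a description. The probe with the smallest adjusted p, A_52_P810735, names no gene. Its levels in VCF were -3.76, -3.03, -3.72 and -3.86, and in heat-recovered lungs they ran from -5.91 over -5.21 to -4.73. All 7 heat-recovered arrays lay below VCF, and Ctrl, at -5.50 to -4.66, lay with them (difference -1.69, SE 0.24, adjusted p = 0.168 by limma; 0.0334 without RCF replicate 3, the single setting among those run in which it passed). A_52_P811068, also unnamed, was well above background in the 4 VCF arrays and not well above background in any of the 7 heat-recovered arrays, so it was at least 1.42-fold higher in VCF. It passed the filter on dim probes through VCF, where it is high, so its adjusted p (0.168 by limma, and 0.261 without that filter) is given as a description. A lower bound of this kind sets the VCF mean against the lowest signal well above background on each dim array. Kcnq1ot1, a long non-coding RNA kept in the nucleus at an imprinted locus, was chosen after its values were seen. It stood at -1.72, -1.04, -1.45 and -1.40 in VCF and at -2.57 to -1.58, median -2.29, in heat-recovered lungs, with 6 of 7 below the lowest VCF array (difference -0.79, SE 0.27, adjusted p = 0.718 by limma).

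At the level of genes, each read at its brightest probe, 212 of 14468 were lower (1.47%) and 116 higher (0.802%) at an unadjusted p under 0.05. The arrays did not overlap at 19 that were lower (0.131%) and 11 that were higher (0.076%), and 50.1% of all genes had a difference above 0, with a median of 0.00. The genes described next are the 10 in each direction with the smallest p among 13 higher and 34 lower genes whose arrays did not overlap at any 1 probe and were well above background on the higher side. They were chosen by this contrast, so their values are descriptions, and none passed the adjusted test.

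Among the lower genes Grb10, an adaptor protein that restrains insulin receptor signalling, stood at -3.35, -3.04, -3.33 and -3.27 in VCF and at -4.92 to -3.79, median -4.54, in heat-recovered lungs. The VCF arrays were tightly grouped and all 7 others lay below them, 2.26-fold apart (difference -1.18, SE 0.22, adjusted p = 0.564 by limma; CCF -1.28, RCF -1.07). Ctrl ran from -4.97 to -4.05, below VCF as well. Fkbp5, a co-chaperone of the glucocorticoid receptor, stood at -3.76, -3.27, -3.97 and -3.67 in VCF and ran from -4.98 over -4.54 to -4.22 in heat-recovered lungs (difference -0.86, SE 0.20, adjusted p = 0.564 by limma).

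Both genes have other probes that did not follow. The brightest Grb10 probe differed by -0.15 (SE 0.12) and its dimmest, not well above background on most arrays, by 0.05 (SE 0.31). For Fkbp5 the other probes differed by -0.22 (SE 0.34) and 0.22 (SE 0.26). The same holds for Rev1, a DNA polymerase of translesion synthesis, whose named probe differed by -0.89 (SE 0.23) and whose brighter one by 0.04 (SE 0.12), and for Eif2ak4, the kinase that senses uncharged transfer RNA, at -0.58 (SE 0.17) against -0.01 (SE 0.13). Rev1 stood at -2.49, -1.83, -2.21 and -2.58 in VCF and at -3.53 to -2.70 in heat-recovered lungs, median -3.27, with all 7 below VCF. Eif2ak4 stood at -4.78, -4.24, -4.42 and -4.67 in VCF and at -5.74 to -4.84, median -4.94, with the nearest arrays of both sides almost touching. These 4 differences therefore belong to 1 probe each, not to every probe of the gene.

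Crem, a transcription factor that modulates cAMP-responsive genes, was lower at all 6 of its tested probes, 4 of them at an unadjusted p under 0.05, by -0.42 to -0.17. At the named probe VCF stood at 0.58, 0.61, 0.62 and 0.55, and heat-recovered lungs ran from 0.21 over 0.28 to 0.43. The 4 VCF arrays were tightly grouped and lay above all 7 heat-recovered and all 3 Ctrl arrays (difference -0.28, SE 0.08, adjusted p = 0.630 by limma).

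Exoc5, a subunit of the exocyst that tethers secretory vesicles, stood at 2.55, 2.55, 2.72 and 2.55 in VCF and at 1.96 to 2.48, median 2.26, in heat-recovered lungs (difference -0.37, SE 0.10); its second probe differed by -0.21 (SE 0.10). Vps50, part of an endosomal recycling complex, stood at 0.68, 0.64, 0.88 and 0.47 in VCF and at 0.20 to 0.43, median 0.33 (difference -0.34, SE 0.10). Its Ctrl arrays, at 0.57 to 0.72, lay within the range of VCF and above all 7 heat-recovered arrays. Kansl1l, a homologue of a subunit of a histone acetyltransferase complex, stood at -0.14, -0.07, 0.02 and -0.14 in VCF and at -0.63 to -0.18, median -0.42 (difference -0.32, SE 0.09), with -0.27 (SE 0.09) at its second probe. Pigw, an enzyme of glycosylphosphatidylinositol anchor synthesis, stood at -3.04, -3.16, -2.90 and -3.11 in VCF and at -3.45 to -3.25, median -3.41 (difference -0.34, SE 0.09), while a dimmer second probe gave 0.35 (SE 0.33). Unc5d, a netrin receptor, was well above background on all 4 VCF arrays and on none of the 7 heat-recovered ones, at least 1.30-fold higher in VCF. The VCF arrays were enough for it to pass the filter on dim probes, so the fold is a description. For Unc5d 1 Ctrl array, at -5.03, was brighter than any VCF array.

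Of the higher genes Prdm8, a PR domain protein that acts as a transcriptional repressor in neurons, had the smallest p. It stood at -1.35, -1.21, -1.23 and -0.84 in VCF, at -0.78, -0.45 and -0.80 in CCF and at -0.03, 0.06, -0.46 and -0.05 in RCF. All 7 heat-recovered arrays lay above VCF, the RCF arrays mostly above CCF, and Ctrl, at -0.63 to -0.34, lay between VCF and most RCF arrays. The difference was 0.76 (SE 0.13, adjusted p = 0.558 by limma), a fold of 1.69, with 0.48 in CCF and 1.04 in RCF; RCF exceeded CCF by 0.55 (SE 0.16, adjusted p = 0.479 by limma). Steap3, an endosomal ferrireductase of iron uptake, stood at -4.88, -5.00, -4.79 and -4.77 in VCF and ran from -4.50 over -4.43 to -4.03 in heat-recovered lungs, all 7 above VCF (difference 0.51, SE 0.12, adjusted p = 0.564 by limma; CCF 0.53, RCF 0.50).

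Abca6, an ATP-binding cassette transporter, stood at -5.83, -5.87, -5.91 and -5.76 in VCF and at -5.69 to -5.31, median -5.48, in heat-recovered lungs (difference 0.35, SE 0.11). Chst11, a sulfotransferase of chondroitin sulfate in the matrix, stood at -2.87, -2.63, -2.79 and -2.65 in VCF and at -2.63 to -2.05, median -2.41 (difference 0.34, SE 0.13); of its other probes 1 gave 0.25 (SE 0.12) and a dim one 0.06 (SE 0.24). Inpp5e, a phosphoinositide phosphatase of primary cilia, stood at -0.94, -1.003, -0.87 and -0.88 in VCF and at -0.87 to -0.55, median -0.74 (difference 0.18, SE 0.09). The closest VCF and heat-recovered arrays of the last 2 genes were the same to 2 decimals. The other 5 were Hpcal4, a neuronal calcium sensor (0.40, SE 0.15), Fam222a (0.37, SE 0.13), Proser3 (0.35, SE 0.11), Rwdd2a (0.29, SE 0.10) and Fbxo27, a substrate receptor of a ubiquitin ligase (0.25, SE 0.09), all with 7 of 7 heat-recovered arrays above VCF. With normexp the median was -0.18 over all probes and -0.01 over all genes. Under it the differences of Steap3 (-0.28), Abca6 (-0.35), Proser3 (-0.20) and Rwdd2a (-0.21) turned negative. So did those of Fbxo27 (-0.13), Chst11 (-0.05) and Hpcal4 (-0.15). The differences of Prdm8, Fam222a and Inpp5e did not.

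**Figure D3:**
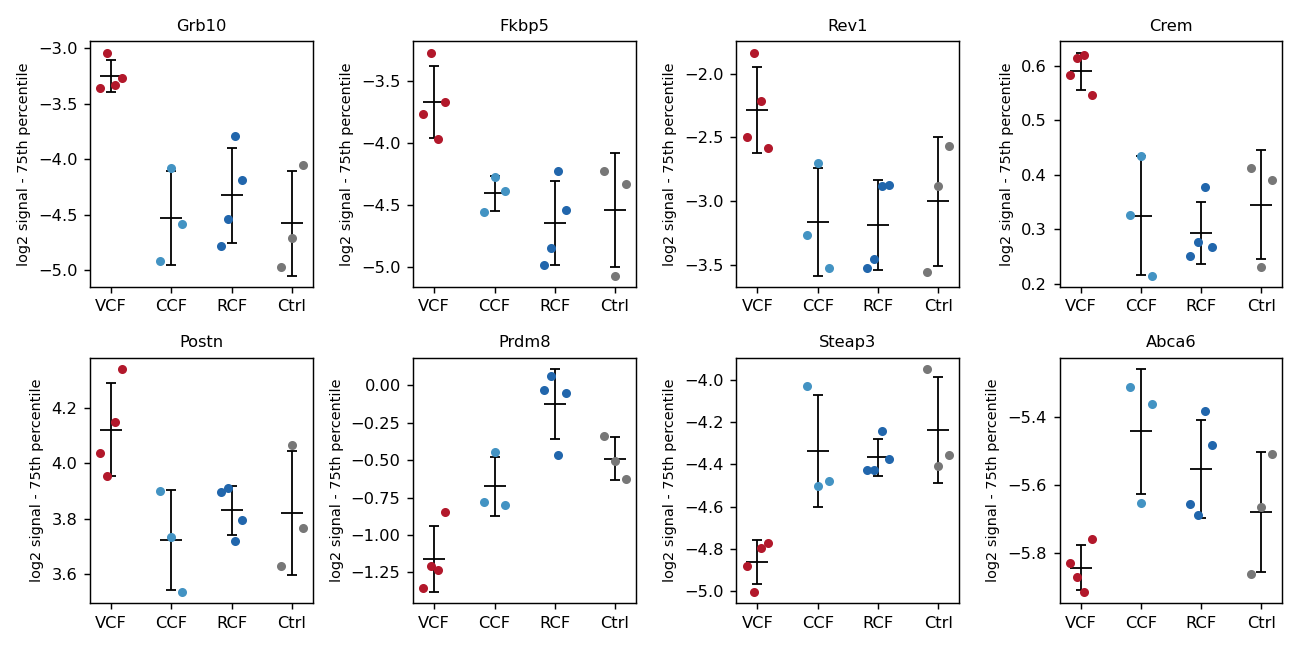
Level of 8 genes on each array (log2 processed signal minus the array's 75th percentile, vertical axis, scaled per gene), 1 point per array, with the group mean and SD, for VCF, CCF, RCF and Ctrl. The 4 VCF arrays stand apart from all 7 CCF and RCF arrays in each gene, above them in Grb10, Fkbp5, Rev1, Crem and Postn and below them in Prdm8, Steap3 and Abca6.

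Gene lists were read as the median difference over their genes, 1 probe a gene, beside a median of 0.00 and 50.1% above 0 over all genes. Over 39 lists with 492 tested genes, 9 genes (1.83%) reached an unadjusted p under 0.05 and none an adjusted p of 0.05. In 12 lists the median lay beyond 0.1 in size, above in 7 and below in 5. With normexp, where the median of all genes was -0.01 and 48.5% lay above 0, it did so in 23, above in 19 and below in 4. Of 14 listed genes of alveolar type 2 cells, which make surfactant, 13 were tested, with a median difference of 0.04, or 0.20 with normexp. In whole lung, fewer cells of a type and less RNA per cell cannot be told apart.

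Interferon response genes, which antiviral and inflammatory signals induce through STAT transcription factors, were higher in 17 of 18, with a median of 0.25 (CCF 0.37, RCF 0.13, and Ctrl minus VCF 0.36). Oasl2, a member of the oligoadenylate synthetase family, stood at 0.95, 1.23, 1.53 and 1.63 in VCF and at 1.30 to 2.10, median 1.74, in heat-recovered lungs, with 6 of 7 above the highest VCF array (difference 0.44, SE 0.19, adjusted p = 0.952 by limma). Cxcl10 stood at -2.06, -1.81, -0.46 and -0.77 in VCF and at -1.12 to 0.09, median -0.71. Its 2 lowest VCF arrays lay below all 7 heat-recovered arrays and the other two among them (0.61, SE 0.34). Zbp1, a sensor of Z-form nucleic acid, differed by 0.47 (SE 0.30), with 6 of 7 above the highest VCF array.

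Among the other genes whose upstream sequences are printed above, chosen after their values were seen, Oas3 differed by 0.76 (SE 0.52), Ifit1 by 0.27 (SE 0.20) and Isg15 by 0.25 (SE 0.24); Oas3 gave -0.11 with normexp. By array, the median deviation of the list was -0.51, -0.40, 0.15 and -0.02 in VCF, 0.21, -0.28 and 0.41 in CCF, and 0.06, 0.00, -0.29 and 0.11 in RCF. VCF replicates 1 and 2 were lowest and the other two VCF arrays lay within the range of the heat-recovered ones. The list median was 0.45, 0.13, 0.08 and 0.28 within slides 1 to 4, between 0.17 and 0.38 when single arrays were left out, 0.23 with normexp and 0.26 with quantile normalization.

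T cell genes were higher in 13 of 13, by a median of 0.16 (CCF 0.31, RCF 0.00), and the median was 0.38, -0.03, -0.14 and 0.34 within slides 1 to 4 and 0.05 without VCF replicate 2, the fibre array lowest in these genes. Of all 14 arrays Ctrl replicate 3 was lowest in them, at -0.418 beside -0.417 in VCF replicate 2. Cd247, the zeta chain of the T cell receptor, differed by 0.23 (SE 0.18), and Zap70, the kinase that binds it, by 0.21 (SE 0.12). Zap70 stood at -0.64, -0.79, -0.36 and -0.51 in VCF and at -0.56 to 0.08, median -0.49, in heat-recovered lungs, so the sides overlapped. Killer lymphocyte genes were higher in 8 of 10, with a median of 0.17 (CCF 0.31, RCF 0.00) that single left-out arrays moved between -0.06 (VCF replicate 2) and 0.36 (VCF replicate 3). Prf1, the pore-forming protein of killer granules, differed by 0.42 (SE 0.27), Eomes, their T-box transcription factor, by 0.38 (SE 0.31) and -0.15 with normexp, and Nkg7, a granule protein, by 0.22 (SE 0.28). Prf1 was higher in CCF (0.96) and not in RCF (-0.12).

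Neutrophil genes were higher in 9 of 12, with a median of 0.17 that came from 0.55 in CCF and -0.27 in RCF and was -0.01 without VCF replicate 2 and 0.00 without CCF replicate 3. Csf3r, the receptor of the growth factor G-CSF, differed by 0.35 (SE 0.51), Cxcr2, a chemokine receptor, by 0.31 (SE 0.50) and Mmp9, a granule protease, by 0.30 (SE 0.37). Cxcr2 differed by 1.03 in CCF and by -0.41 in RCF. Monocyte and interstitial macrophage genes were higher in 11 of 13, with a median of 0.13 (CCF 0.16, RCF 0.03) that was 0.00 without CCF replicate 3 and 0.28 with normexp. The chemokine receptors Cx3cr1 (0.50, SE 0.44) and Ccr2 (0.33, SE 0.30) and the lipopolysaccharide co-receptor Cd14 (0.16, SE 0.13) had the smallest p. None of these lists had a gene at an unadjusted p under 0.05.

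Acute phase and complement genes were higher in 13 of 17, with a median of 0.15 (CCF 0.29, RCF -0.07) and of 0.07 to 0.25 with single arrays left out. C1ra, a serine protease that starts the classical complement pathway, stood at 2.24, 2.41, 2.20 and 2.82 in VCF and at 2.56 to 2.89, median 2.72, in heat-recovered lungs (difference 0.31, SE 0.12, adjusted p = 0.861 by limma). Its 3 lower VCF arrays lay under all 7 heat-recovered arrays and VCF replicate 4 among them. C3, the central complement protein, differed by 0.22 (SE 0.16) and C1s1, the partner protease of C1ra, by 0.15 (SE 0.10).

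Red blood cell genes were lower in 8 of 9, with a median of -0.42 (CCF -0.46, RCF -0.46, and Ctrl minus VCF -0.99). Bpgm, which makes the bisphosphoglycerate that lowers haemoglobin's oxygen affinity, stood at 2.67, 2.76, 3.15 and 3.19 in VCF and at 2.35 to 3.12, median 2.42, with 6 of 7 below the lowest VCF array (difference -0.39, SE 0.16, adjusted p = 0.907 by limma). Hba-a1, alpha-globin, and Alas2, which starts haem synthesis in red cells, were chosen after their values were seen. Hba-a1 stood at 8.41, 8.48, 8.48 and 8.64 in VCF, at 8.84, 7.80 and 7.32 in CCF, and at 7.96, 8.42, 8.30 and 8.09 in RCF, and its near-identical copies can share signal (difference -0.42, SE 0.25). Alas2 differed by -0.65 (SE 0.37).

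The array CCF replicate 1 was the highest of all 14 in the red blood cell list (0.91) and CCF replicate 3 the lowest fibre array (-0.49). The 4 VCF arrays stood at 0.08, 0.27, 0.56 and 0.72. Within slides the list median was 0.08 on slide 1, which holds CCF replicate 1, and -0.43, -0.85 and -0.31 on slides 2 to 4. Left-out single arrays gave -0.63 to -0.32. Without the 4 arrays that were highest in liver, thymus or adipose genes, which are VCF replicate 1, RCF replicate 1 and replicates 2 and 3 of CCF, it was 0.02, and Hba-a1 stood at 0.02. That fit holds 1 CCF array, CCF replicate 1, the highest in this list, which weighs as much as the remaining RCF arrays together. RCF replicates 2 to 4 stood at 0.20, 0.23 and 0.24 in the list, below VCF replicates 2 to 4. Blood left in the vessels was not measured, and its part in the result was not tested.

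**Figure D4:**
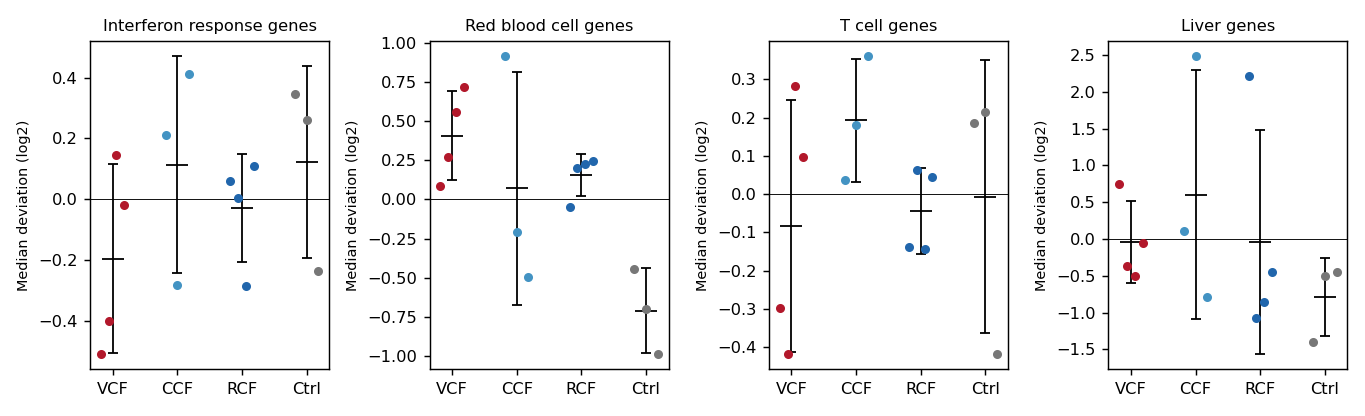
Median deviation of 4 gene lists from each gene's mean over all arrays (log2, vertical axis, scaled per panel), 1 point per array, with the group mean and SD. VCF replicates 1 and 2 are lowest in interferon response genes (-0.51 and -0.40), CCF replicate 1 is highest in red blood cell genes (0.91), and CCF replicate 2 and RCF replicate 1 carry the high liver values.

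Genes of neighbouring tissues differed between single arrays more than between the sides. Liver genes had a median of 0.39 (-0.09 with normexp) with 6 of 7 higher, and the arrays CCF replicate 2 and RCF replicate 1 had median deviations of 2.48 and 2.21 against at most 0.74 on the other fibre arrays. Alb, albumin, stood at 0.58 and 0.59 on those arrays and at -3.86 to -2.26 on the other 5 heat-recovered ones, with VCF at -3.29 to -1.93 (difference 0.48, SE 0.89). Ahsg, fetuin, differed by 0.63 (SE 0.38). Serpina1c, a liver protease inhibitor, was well above background on 0 VCF and 3 heat-recovered arrays. Its heat-recovered mean was at least 1.58-fold higher, with a difference of -0.29 under normexp. Those 3 arrays, where it is high, were enough to pass the filter on dim probes, so the fold is a description. The median of the 7 heat-recovered arrays, -6.39, lay within VCF, at -7.20 to -6.24. The liver median was -0.12 without CCF replicate 2, -0.04 without RCF replicate 1 and 0.05 without the 4 arrays named above.

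Adipose genes had a median of -0.30 with 9 of 10 lower, and 0.17 without VCF replicate 1, whose median deviation was 2.08. Ucp1, the uncoupling protein of brown fat, stood at -3.21 in VCF replicate 1 and -6.07 in VCF replicate 2, and it was not well above background in the other 2 VCF arrays or in any heat-recovered array, which gives at least 1.19-fold higher in VCF. Fabp4, a lipid chaperone that endothelium and macrophages also make, differed by -0.45 (SE 0.54). Lep, leptin, was well above background on 2 VCF arrays and 1 heat-recovered array, so its difference of -0.72 (SE 0.75) rests mostly on signals near background. Cardiac muscle genes, which the muscle sleeves of pulmonary veins also express, had a median of -0.14 (0.06 with normexp, and -1.02 without VCF replicate 4) with 8 of 11 lower, and the VCF arrays alone ranged from -2.80 (replicate 4) to 1.64 (replicate 1). Nppa, atrial natriuretic peptide, differed by -1.31 (SE 1.93), Tnnt2, cardiac troponin T, by -0.21 (SE 0.78) and Actc1, cardiac actin, by -0.08 (SE 0.33), which was 0.11 with normexp.

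Thymus genes had a median of 0.08 with 4 of 6 higher, and -0.08 without the 4 arrays. Rag1, the recombinase of developing lymphocytes, stood at -0.93 in CCF replicate 3, -4.14 in CCF replicate 2 and -5.02 in RCF replicate 1, was well above background on no VCF array and on 3 heat-recovered arrays, and was at least 1.70-fold higher in heat-recovered lungs. It passed the filter on dim probes through those 3 arrays alone, so its adjusted p of 0.843 by limma is given as a description. Dntt, the terminal transferase of the same cells, differed by 0.85 (SE 0.60) and by -0.47 without the 4 arrays. The part of neighbouring tissue in the T cell and other leukocyte values was not tested. Without the 4 arrays the T cell median was 0.08, the interferon median 0.19, and Cx3cr1 (-0.11) and Ccr2 (-0.13) turned negative. In that fit CCF replicate 1 alone stands for CCF. It also leaves out CCF replicate 3, the heat-recovered array highest in Cx3cr1 (0.33), so these values do not separate tissue from single arrays.

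**Figure D5:**
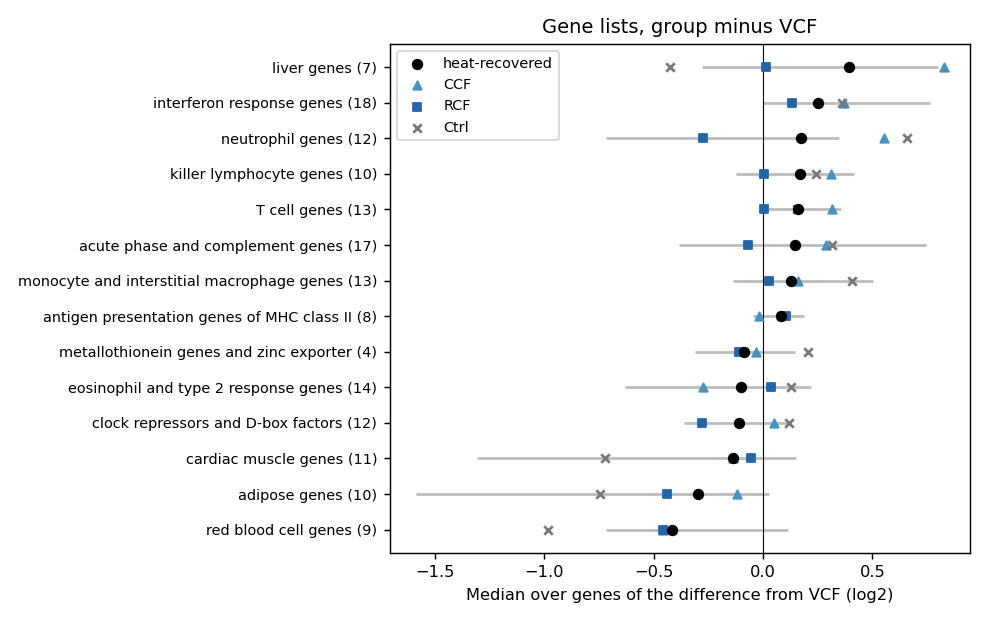
Median over each list's genes of the difference from VCF (log2, horizontal axis) for heat-recovered lungs, CCF, RCF and Ctrl, with the lowest to highest heat-recovered gene as a grey line and the number of tested genes in brackets; all values share the 4 VCF arrays. CCF and RCF lie on opposite sides of 0 for neutrophil, acute phase and eosinophil genes and for the list of clock repressors and D-box factors. They lie on the same side for interferon, red blood cell and adipose genes.

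Several lists had no value common to both heat-recovered groups. Clock repressors, which feed back on the daily rhythm, share a list with D-box factors. That list was lower in 10 of 12, with a median of -0.11 that was 0.05 in CCF and -0.28 in RCF. Per2, a core repressor, stood at 0.02, 0.05, -0.17 and 0.09 in VCF, at 0.19, 0.25 and -0.44 in CCF and at -0.89, -0.72, -0.38 and -0.93 in RCF. All 4 RCF arrays lay below VCF, and 2 of 3 CCF arrays above it (difference -0.36, SE 0.15; CCF 0.00, RCF -0.73). A dimmer second Per2 probe, well above background on all these arrays, did not follow (0.07, SE 0.32). Nr1d2, a nuclear receptor of the clock, differed by -0.27 (SE 0.14). Arntl, the activator partner of CLOCK, stood at -1.90, -1.36, -1.72 and -1.64 in VCF, at -1.49, -1.60 and -1.35 in CCF and at -0.93, -1.09, -1.05 and -0.80 in RCF, so that all RCF arrays lay above VCF and CCF and most CCF arrays within VCF (difference 0.43, SE 0.13, adjusted p = 0.649 by limma; CCF 0.18, RCF 0.69). The list of 6 clock activators and genes in phase with them, which holds Arntl, had 3 genes higher and 3 lower, with a median of 0.02 (CCF -0.02, RCF 0.30). Clock itself differed by -0.15 (SE 0.12) and by 0.02 with normexp. The hour at which lungs were taken is not given in the sources used here, and its part in the result was not tested.

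Eosinophil and type 2 response genes were lower in 12 of 14, with a median of -0.10 (CCF -0.27, RCF 0.03), of -0.33 with normexp and of -0.18 to -0.06 with single arrays left out. Ear6, an eosinophil-associated ribonuclease, differed by -0.26 (SE 0.15; CCF -0.55, RCF 0.03) and Il4, the type 2 cytokine, by -0.40 (SE 0.27; CCF -0.88, RCF 0.08). Alveolar macrophage genes were lower in 11 of 18, with a median of -0.06 (0.01 with normexp); Ear1, a ribonuclease of these cells, differed by -0.27 (SE 0.16; CCF -0.58, RCF 0.05), and Krt19, a keratin that epithelium also makes, by 0.22 (SE 0.13).

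Medians of matrix and stress genes were near 0. Collagen and scar matrix genes were higher in 13 of 19 with a median of 0.06, which was 0.18 with normexp and -0.03 to 0.14 with single arrays left out. Postn, periostin, a matrix protein of fibroblasts, was lower with no overlap. Postn stood at 4.04, 3.95, 4.15 and 4.34 in VCF and at 3.53 to 3.91, median 3.79, in heat-recovered lungs (difference -0.35, SE 0.12, adjusted p = 0.7104 by limma; CCF -0.40, RCF -0.29), and Ctrl, at 3.63 to 4.07, overlapped both. Eln, elastin, differed by 0.33 (SE 0.23). Of the 4 metallothionein genes and zinc exporter 2 were lower. Mt2, a metal-binding protein induced by zinc, stood at 3.95, 3.80, 3.85 and 3.70 in VCF and at 3.21 to 4.01, median 3.39, with 6 of 7 below VCF, and Ctrl at 4.30 to 4.83 lay above both (difference -0.31, SE 0.15); Mt1 differed by -0.20 (SE 0.17), and by 0.01 with normexp. Of the p53 targets, 9 of 14 were lower with a median of -0.03 (0.07 with normexp); Ccng1, cyclin G, differed by -0.21 (SE 0.09), with 6 of 7 arrays below VCF and 0.00 with normexp, and Mdm2, the ubiquitin ligase of p53, by 0.28 (SE 0.13). Nrf2 target genes (median 0.02), oxidative phosphorylation genes (-0.04), cell division genes (0.00), heat shock genes (-0.01) and endothelial genes (0.00) had medians near that of all genes; with normexp the 5 lists had 0.19, 0.14, -0.09, 0.17 and 0.16 in the same order.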

How the data were processed

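Per the file headers, version 10.7.3.1 of Agilent Feature Extraction made the intensity values of single spots, with background already subtracted and no scaling between arrays. The authors' deposited table holds log2 values of 27496 probes, each within 0.01 of log2 intensity minus a constant of its array. Log2 of the processed intensity minus the array's 75th percentile was analysed, after 1639 control spots and spots marked as outliers were left out and spots of a probe averaged (41174 probes). The 75th percentile ran from 724.7 to 1345.6 per array, 63.07% to 70.6% of probes stood well above background, and no spot was saturated. The number of arrays limits the precision. A probe was tested if well above background on at least 3 of 14 arrays, whatever their group, so a dim probe can pass through 1 side alone, where it is high. Symbols came from RefSeq accessions in a list of genes on GRCm38.p6: 24844 probes matched 1 symbol and 16330 none or several.

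All 4 groups were fitted together with limma 3.58.1 in R 4.3.3 (10 residual and 2.39 prior degrees of freedom), two-sided; the fit was tested on simulated data. Files were read with the R package data.table in version 1.17.8; figures used Python 3.11.15 and matplotlib 3.10.9. The members and the 39 lists were chosen with earlier results of these data known. Named genes follow a rule: 10 genes in each direction of smallest p whose arrays do not overlap and are well above background on the higher side; of the 10 lists with the largest medians, the 3 genes of smallest p in the list's direction; and 2 genes of smallest p in other lists described. Genes outside it are marked, and some genes it names are not reported here. Normexp used the median spot signal and an offset of 50. Slides were numbered from the headers.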

Additional observations from a re-analysis of the deposited data

Results flagged for a closer look

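In 270 checks of single genes and lists within VCF, RCF or the 7 heat-recovered arrays, 12 checks (4.44%) held a value far from the rest of its group, where chance gives about 1 in 20. On the level scale of the report, the heat-recovered arrays held such a value in Pigw (RCF replicate 4, -3.25), Bpgm (CCF replicate 1, 3.12), Cx3cr1 (CCF replicate 3, 0.33) and Dntt (CCF replicate 3, 1.11). Within RCF it was Alb (replicate 1, 0.59), Zbp1 (replicate 4, 0.89), Isg15 (replicate 3, 0.13), the red blood cell list (replicate 1, -0.045) and the thymus list (replicate 1, 0.27). Within VCF it was Exoc5 (replicate 3, 2.72), Csf3r (replicate 2, -0.96) and the unnamed probe A_52_P810735 (replicate 2, -3.03). RCF replicate 1, high in Alb and in the thymus list, is also 1 of the 2 arrays high in liver genes, and CCF replicate 3, high in Dntt, is the array highest in Rag1.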

How the results depend on the processing

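Alternatives were normexp background correction, quantile normalization, the authors' deposited table, no filter on dim probes or a filter on all 14 arrays, a fit without Ctrl, the 7 heat-recovered arrays as 1 group, blocks for the slide or for the replicate number, a trended and robust prior, the mean over a gene's probes, values within slides, and each array left out. A fit without 4 arrays together was chosen after seeing the data. In that fit CCF replicate 1 alone stands for CCF. No probe passed an adjusted p of 0.05 between heat-recovered and VCF in any of these, except 1 without RCF replicate 3. RCF against VCF gave 1 with slide as a block.

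Normexp left 84 lower and 10 higher probes at an unadjusted p under 0.05 and 3 lower and 1 higher without overlap, 1.17% of AK probes and 0.0432% of gene-named probes lower, and an AK median of -0.39; the cause was not tested. Under it the differences of Steap3 (-0.28), Proser3 (-0.20), Abca6 (-0.35), Rwdd2a (-0.21), Fbxo27 (-0.13), Chst11 (-0.053), Hpcal4 (-0.15), Serpina1c (-0.29), Eomes (-0.15), Oas3 (-0.11), Actc1 (0.11), Clock (0.024), Mt1 (0.0058) and Ccng1 (0.00046) changed sign. Quantile normalization gave 397 higher probes, 37 without overlap, and 72.8% of small p-values lower against 85.2% in the report; slide as a block gave 482 higher, 75.5% lower, and 2.41% of gene-named probes lower. Without a filter the AK median was 0.063 and 8.61% were lower; with the filter on 14 arrays, which tests fewer probes, 147 were lower without overlap. Within slide 1 the AK median was -0.24. Without the 4 arrays 1049 probes were lower and 420 higher without overlap, which fewer arrays make easier, and Cx3cr1 (-0.11), Ccr2 (-0.13), Dntt (-0.47) and Hba-a1 (0.016) changed sign.

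With single arrays left out, probes at an adjusted p of 0.05 numbered 0 to 1 for heat-recovered, CCF or RCF against VCF and 0 to 3 for RCF against CCF, the last without CCF replicate 3. Probes lower without overlap numbered 221 to 544 (544, 386, 534, 343 and 370 without VCF replicates 1, 2 and 4, CCF replicate 2 and RCF replicate 4), and higher without overlap 22 to 253 (77, 98, 48 and 253 without VCF replicates 1 to 4; 45, 66 and 56 without CCF replicates 1 to 3; 34 and 36 without RCF replicates 3 and 4). Higher probes at an unadjusted p under 0.05 numbered 164 to 491 (387 without CCF replicate 2, 491 without VCF replicate 4). AK probes lower were 10.2% (without VCF replicate 2) to 21.0% and gene-named probes 0.639% (without VCF replicate 3) to 2.34% (without CCF replicate 2; 2.27% without VCF replicate 4). Differences that changed sign ranged from -0.12 to 0.99 in Alb, -1.21 to 0.13 in Lep, -0.86 to 0.051 in Fabp4, -0.021 to 0.56 in Csf3r, -0.067 to 0.40 in Nkg7, -2.45 to 0.011 in Nppa, -1.02 to 0.22 in Tnnt2 and -0.37 to 0.090 in Actc1.

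Same-numbered arrays of different groups had a mean r of 0.01 between their deviations (-0.37 to 0.35, 19 pairs). Of the 14 arrays, 7 went best with their own number, so these values do not settle whether the number pairs samples. Arrays of different groups on the same slide had a mean r of 0.17 (18 pairs), against -0.05 on different slides (55 pairs). The main fit held no term for the slide. A replicate block gave 0 probes at an adjusted p of 0.05, 1348 lower and 253 higher at an unadjusted p under 0.05. Signals near background limit what dim probes can show. With 3 to 4 arrays a group, even differences of several SE did not pass the adjusted test in the main fit.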
